A study of Callithrix jacchus and Rattus norvegicus and Loxodonta africana with 31 samples.

Results

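Cytochrome c oxidase, complex IV of the respiratory chain, has several nuclear subunits that exist as paralogous isoforms. The 10 genes described here are COX4I1 and COX4I2, COX6A1 and COX6A2, COX6B1 and COX6B2, COX7A1 and COX7A2, and COX8B and COX8C. They were found by name in 3 tables of transcript levels, of the common marmoset, the rat and a wallaby. By name, ignoring case, 13 of 54059 table rows were members: 2 of 19681 in the marmoset, 9 of 20486 in the rat and 2 of 13892 in the wallaby. The marmoset table names many genes only by an NCBI gene number, and 7 further members were found there through that number, which made 20 rows in all. Marmoset COX8B and rat Cox7a1 were not analysed here. In the wallaby, COX6B2 and COX7A2 were the members analysed.

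Complex IV passes electrons from cytochrome c to oxygen and pumps protons across the inner mitochondrial membrane. Its catalytic core is encoded by mitochondrial DNA, and the nuclear subunits surround that core and modulate its activity, stability and dimerisation. In mammals COX6A2, COX7A1 and COX8B are known as heart and skeletal muscle isoforms. COX4I1, COX6A1, COX6B1, COX7A2 and the subunit COX8A are found in most tissues, COX4I2 is known from lung and for its response to oxygen, and COX6B2 and COX8C are known from testis.

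The series contained 31 samples of polyadenylated RNA: 14 marmoset, 12 rat, 2 wallaby and 3 elephant fibroblast samples, of which the elephant samples were not used here. Its stated subject is the sequence and expression of Y-linked genes, and the tables also list the other genes of each genome. Marmoset and rat heart, brain, kidney and liver each had 1 male and 1 female library, labelled as coming from the same numbered male and female throughout, so that sex and animal cannot be told apart. Ovary, rat testis, and wallaby testis and liver had 1 library each. No age, strain or treatment is stated in the sources used here. The male and female brain columns stand beside labels for frontal cortex and cerebellum, and which of these regions they hold is not stated. The single marmoset testis column stands beside 3 testis samples of 2 males, so it is printed as a value of the authors without SD or n. Part of those testis samples was sequenced on another instrument and with shorter reads than the other marmoset tissues.

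Levels are in FPKM, a unit that divides the fragments of a transcript by its length and by the mapped fragments of the library, so that different genes can be compared. The sum of FPKM over genes ranged from 210712 to 1686921 across the marmoset libraries and from 457975 to 3551202 in the rat. In the 2 rat hearts MT-CO2, the mitochondrially encoded second core subunit, alone stood at 887430 FPKM in the male and 862420 FPKM in the female. The sequencing depth behind these values is unknown, and an exact 0 can be a failed estimate. Marker genes mostly matched the tissue labels: the heart muscle list was highest in heart for 8 of 9 marmoset and 9 of 9 rat genes, and the kidney list for 5 of 5 in both species. The exception in marmoset heart was MYH6, a myosin heavy chain, which was listed at 0 in the male heart but not in the female heart. Marmoset testis had few of its markers: DDX4, a germ cell helicase, stood at 29.8 FPKM, but TNP1, ODF1 and AKAP4, of spermatids, stood at only 0.169, 0.0542 and 0.408 FPKM. The 7 rat testis markers lay between 87.1 and 5435 FPKM and the 6 wallaby markers between 36.5 and 72536 FPKM.

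For the 7 marmoset rows found by NCBI gene number, the name comes from RefSeq (assembly calJac240_pri, used for names only). An Ensembl name table gave the same name to the same Ensembl gene for COX4I1 and COX6A2, and listed another Ensembl gene for COX4I2, COX6B2 and COX8C. The chromosome given in the marmoset table was the one of the RefSeq assembly for 5 of these 7 rows, against 83.3% of all 6927 rows named in this way. The exceptions were COX6A2 and COX8C.

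**Figure D1:**
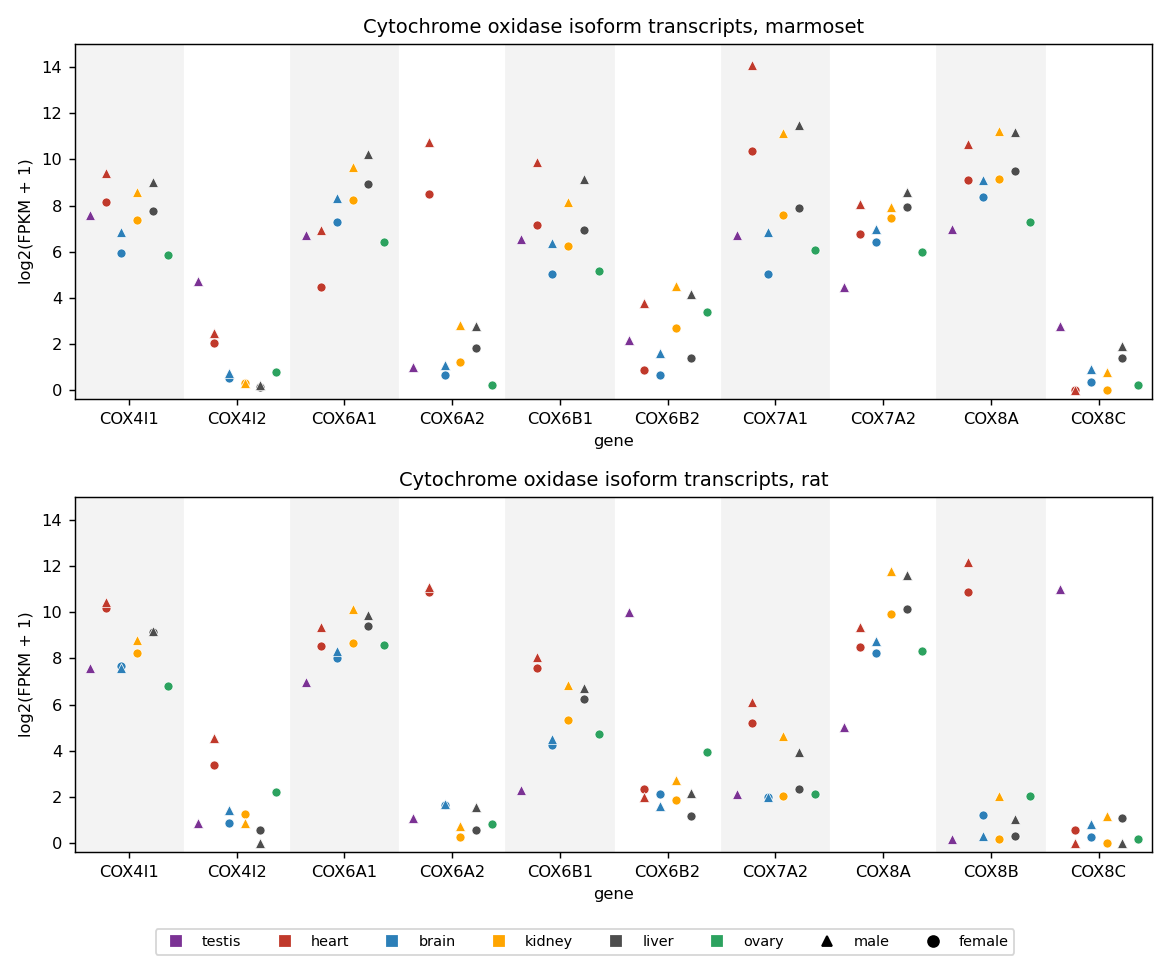
Levels of the isoform genes and of COX8A, the paralogue used in the shares, in each library, on the log2(FPKM + 1) scale (y axis); the x axis gives the gene, colours the tissue, triangles the male and circles the female (marmoset testis, 1 value of the authors). COX6A2 in both species and COX8B in the rat were far above every other library in the hearts, and rat COX6B2 and COX8C were far above every other library in testis.

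The first comparison asked which isoforms were higher in heart than in the other somatic tissues. The muscle isoforms stood far apart: COX6A2 stood at 357 FPKM or more in every heart of both species and at 5.98 FPKM or less in every brain, kidney and liver library, and rat Cox8b stood at 1881 FPKM or more in heart and at 3.11 FPKM or less elsewhere. Marmoset COX7A1 also rose in heart, but it was abundant in kidney and liver too. The paralogue COX6A1 fell in marmoset heart and did not pass the test in rat heart. Heart was tested against the mean of brain, kidney and liver with limma on log2(FPKM + 1), with the animal as a block. To pass, a gene needed an adjusted p (Benjamini-Hochberg) under 0.05 together with a log2 change of at least 1 in either direction. The block removes the overall shift between the 2 animals of a species. These p-values therefore measure only the spread left in the tissue differences of the animals at hand. In bulk tissue, fewer cells of a type and less RNA per cell cannot be told apart.

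In the marmoset 5 of 9 members tested rose in heart and 1 fell. Of all 15100 genes tested, 13.1% rose and 18.2% fell. One of the 5, COX4I2, entered the test through its heart libraries alone and so could only be found higher. Without the animal block 2 members rose, COX4I2 and COX6A2, and without the brain libraries 3 rose, COX4I2, COX6A2 and COX7A1. Leaving out the heart of the male also left 3, COX4I1, COX6A2 and COX7A1. In the rat 6 of 9 members rose and 0 fell by limma, whereas 16.7% of 14560 genes rose and 17.3% fell. At an unadjusted p under 0.05, 0 rat members were lower. The members' median log2 change was 1.21 in the marmoset and 2.18 in the rat, beside medians of -0.17 and -0.11 over all genes tested.

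COX6A2 encodes the muscle form of subunit VIa, which binds nucleotides and helps the enzyme dimerise. In marmoset heart COX6A2 stood at 1723 FPKM in the male and 357 FPKM in the female. The other 6 somatic libraries of the marmoset lay between 0.575 and 5.98 FPKM. Its log2 change in marmoset heart was 7.88 ± 0.35 (limma estimate ± SE, adjusted p = 3.00e-05). Both hearts were above all other libraries, and the order below heart was liver, kidney and brain, with liver and kidney overlapping.

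Rat Cox6a2 stood at 2166 FPKM in the male heart and 1863 FPKM in the female heart, with 0.187 to 2.26 FPKM in the other 6 libraries. The log2 change was 9.89 ± 0.23 (limma, adjusted p = 1.94e-06). Rat brain, at 2.26 FPKM in the male and 2.18 FPKM in the female, lay above rat liver and kidney, so the order of the low tissues differed between the species. Testis and ovary were low as well, at 0.984 and 0.153 FPKM in the marmoset and 1.10 and 0.755 FPKM in the rat.

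COX6A1, the form found in most tissues, had the opposite pattern in the marmoset. It stood at 121 FPKM in the male heart and 21.1 FPKM in the female heart, below every other somatic library (153 to 1215 FPKM). Of all marmoset genes tested, 8.39% lay below all other libraries in both hearts. COX6A1 fell by 3.08 ± 0.32 on the log2 scale in marmoset heart (limma estimate ± SE, adjusted p = 5.52e-04). In the rat it stood at 662 and 376 FPKM in the male and female heart, inside the range of the other libraries (262 to 1123 FPKM), and its change of -0.11 ± 0.32 did not pass (limma adjusted p = 0.775). The size of the rat change depended on the processing. Under quantile normalization it was -0.90 (limma adjusted p = 0.0155), short of the threshold of 1, and without brain it was -0.56.

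The balance was expressed as a share of the isoform set within each library, which does not depend on the scaling between libraries. COX6A2 made up 93.9 ± 0.68% of COX6A1 plus COX6A2 in marmoset heart (SD, n = 2), against 0.483 ± 0.13% in brain, kidney and liver (n = 6). In the rat the share was 79.9 ± 4.7% in heart (76.6% in the male and 83.2% in the female) against 0.316 ± 0.35% elsewhere. The groups did not overlap. The exact permutation test, two-sided, gave p = 0.0714 for each of the 4 shares tested in all, also after Benjamini-Hochberg adjustment, and 0.0714 is the smallest p that 2 against 6 libraries allow. The 6 libraries are brain, kidney and liver of the same 2 animals, so their SD mixes tissues and animals. This test treated all libraries as independent and left the animal out.

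**Figure D2:**
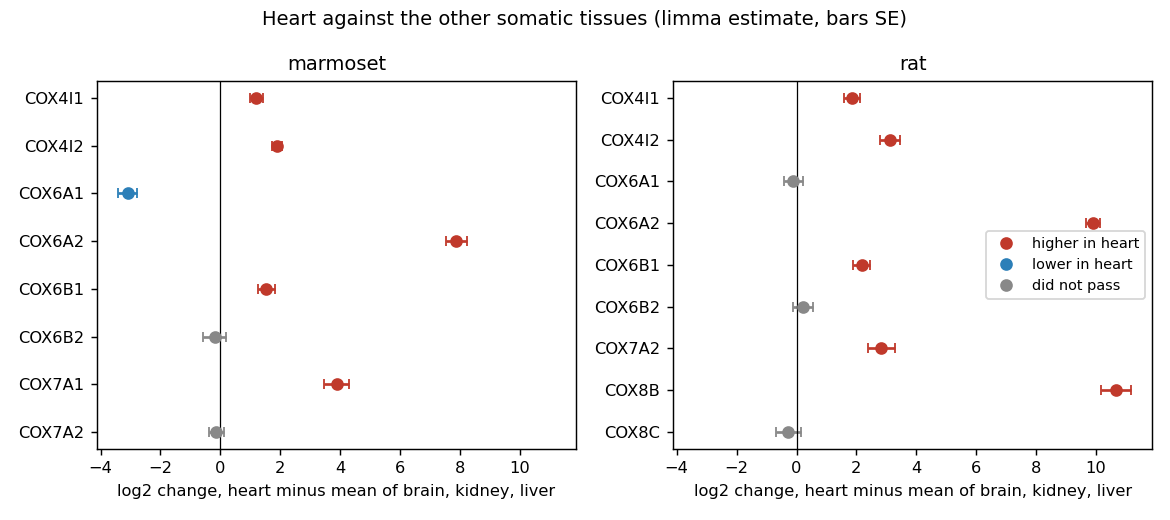
Log2 change in heart against the mean of brain, kidney and liver for each isoform gene (x axis, limma estimate with SE bars; y axis, gene), in marmoset and rat; red passed as higher, blue as lower, grey did not pass. COX6A2 and rat COX8B had the largest changes among the members, at 7.88 to 10.67, and marmoset COX6A1 is the only one that passed as lower; marmoset COX8C, listed at 0 in both hearts, is not drawn.

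COX7A1 encodes the muscle form of subunit VIIa, and COX7A2 the form known from liver and most tissues. Marmoset COX7A1 stood at 17181 FPKM in the male heart and 1327 FPKM in the female heart. In liver it stood at 2877 and 239 FPKM in the male and female, in kidney at 2266 and 194 FPKM, and in brain at 116 and 31.2 FPKM. Within each animal heart was the highest tissue, but the female heart lay below the male liver and the male kidney, so the groups overlapped when animals were ignored. The log2 change in heart was 3.88 ± 0.42 (limma, adjusted p = 6.47e-04), and the adjusted p was 0.110 with no animal block. Without the brain libraries the change was 2.68.

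COX7A2 did not pass in the marmoset, at 268 and 108 FPKM in the male and female heart against 85.2 to 386 FPKM elsewhere (log2 change -0.13 ± 0.24, limma adjusted p = 0.679). COX7A1 made up 98.5% of COX7A1 plus COX7A2 in the male heart and 92.5% in the female heart. It was also the larger part in male kidney (90.3%) and male liver (88.2%), and close to an equal part in female kidney (52.9%) and female liver (49.5%). Brain had 48.2% in the male and 26.8% in the female. The mean share was 95.5 ± 4.2% in heart (SD, n = 2) and 59.3 ± 24.9% elsewhere (n = 6), and the lowest heart share, 92.5%, lay just above the highest other share, 90.3%. Testis had a share of 83.3% and ovary of 51.0%.

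In the rat the Cox7a2 entry stood at 69 and 35.5 FPKM in the male and female heart, above every other library (2.98 to 23.8 FPKM). It rose by 2.83 ± 0.46 on the log2 scale (limma, adjusted p = 0.00249). A further entry, Cox7a2l2, named as a relative of Cox7a2, held far more signal in the same tissues, 3810 and 3502 FPKM in the hearts and 248 to 1325 FPKM in brain, kidney and liver. If the 2 genes are near copies, the authors' counting could have divided reads between them. The level of rat Cox7a2 is therefore uncertain. How alike they are was not tested.

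COX8B encodes the muscle form of subunit VIII, a small subunit that spans the membrane. Rat Cox8b stood at 4607 FPKM in the male heart and 1881 FPKM in the female heart, and at 0.136 to 3.11 FPKM in brain, kidney and liver. Its change of 10.67 ± 0.49 log2 was the largest of any member (limma, adjusted p = 1.79e-05). The order of the 3 low tissues could not be told from the spread, since neighbouring tissues overlapped. Cox8b made up 85.7 ± 2.7% of Cox8a, Cox8b and Cox8c in heart (SD, n = 2) against 0.109 ± 0.16% elsewhere (n = 6).

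Cox8a, the form of subunit VIII found in most tissues, fell in rat heart. It stood at 654 and 365 FPKM in the male and female heart, against 3491 and 966 FPKM in kidney, 3158 and 1121 FPKM in liver and 429 and 298 FPKM in brain. The change was -1.13 ± 0.35 log2 (limma, adjusted p = 0.0321). The hearts overlapped the other libraries, because brain was lower still. Marmoset COX8A did not pass, at 1606 and 557 FPKM in heart against 333 to 2365 FPKM elsewhere (log2 change 0.13 ± 0.34, limma adjusted p = 0.769).

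**Figure D3:**
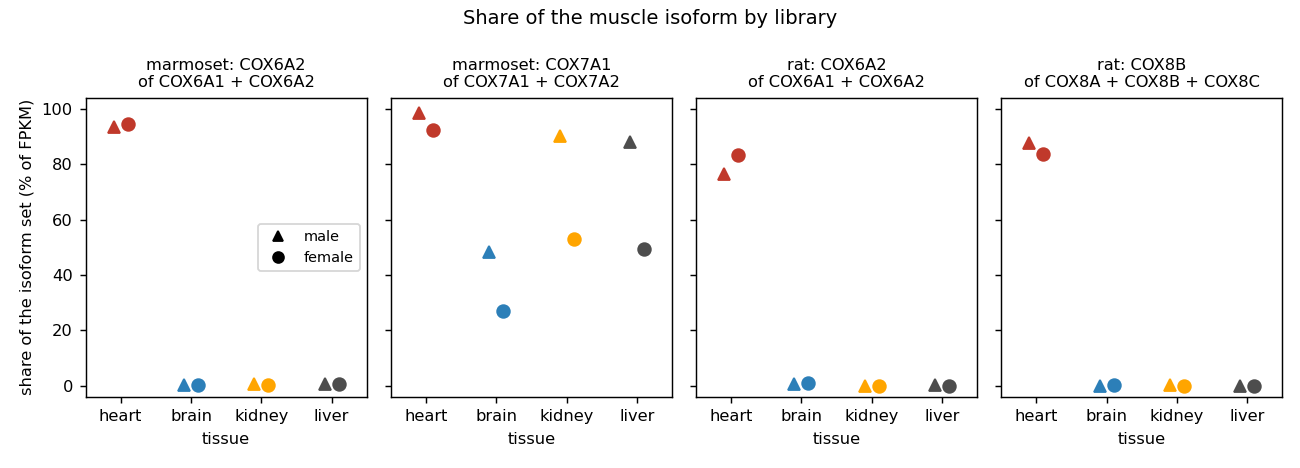
Share of the muscle isoform in its set of paralogues (y axis, percent of FPKM) in heart, brain, kidney and liver (x axis), 1 panel for each isoform and species; triangles are the male and circles the female library. COX6A2 and rat COX8B make up 76.6% or more in heart and stay under 1% in the other 3 tissues, while marmoset COX7A1 runs from 26.8% in female brain to 98.5% in male heart.

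COX4I1 encodes the main form of subunit IV, a large nuclear subunit through which ATP regulates the enzyme. In marmoset heart it stood at 687 and 284 FPKM in the male and female, against 516 and 214 FPKM in liver, 384 and 166 FPKM in kidney and 114 and 60.0 FPKM in brain. Heart was highest within each animal, but heart, liver and kidney overlapped between animals. It rose by 1.21 ± 0.21 log2 in marmoset heart (limma, adjusted p = 0.00402). That call was lost with no animal block (adjusted p = 0.196), and also without brain (log2 change 0.61) and under quantile normalization (log2 change 0.83). In the rat Cox4i1 stood at 1381 and 1162 FPKM in the hearts, above every other library (194 to 588 FPKM), and rose by 1.86 ± 0.26 (limma, adjusted p = 0.00144). Under quantile normalization the rat change was 0.85, below the threshold of 1. In the rat every neighbouring pair in the order heart, liver, kidney, brain was separate.

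COX4I2, the second form of subunit IV, was scarce next to COX4I1 and nevertheless highest in heart among the somatic tissues of both species. The marmoset hearts had 4.60 FPKM in the male and 3.11 FPKM in the female, and the other libraries 0.101 to 0.654 FPKM. The change was 1.89 ± 0.15 log2 (limma, adjusted p = 2.20e-04), on a scale that understates changes of genes near 1 FPKM. Since the gene met the filter of 1 FPKM only through its 2 hearts, the test could only find it higher, and its p supports nothing on its own. With a pseudocount of 5 the change was 0.74 and no longer passed, and without either heart library there was no value. Rat Cox4i2 had 22.1 FPKM in the male heart and 9.46 FPKM in the female heart, with 1.73 FPKM as the highest other value, and rose by 3.12 ± 0.35 (limma, adjusted p = 5.17e-04). As a share of COX4I1 plus COX4I2 it was 0.665% and 1.08% in the male and female marmoset heart and 1.58% and 0.808% in the male and female rat heart.

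Markers of several cell types were, like COX4I2, higher in heart than in the other somatic tissues. Of the heart muscle list, 8 of 9 marmoset and 9 of 9 rat genes tested rose in heart, with median log2 changes of 9.00 and 10.26. Of the skeletal muscle list, 2 of 3 marmoset genes tested rose and 1 fell, and 2 of 2 rat genes rose. Of the smooth muscle and pericyte list, known from vessel walls, 8 of 9 and 6 of 8 rose, with medians of 2.46 and 1.67, and of the endothelial list 4 of 4 and 6 of 6 rose. Of all genes tested 13.1% rose in the marmoset and 16.7% in the rat. The summed smooth muscle and pericyte level was 456 to 700 FPKM in marmoset heart against 49.2 to 364 FPKM in the other somatic tissues, and 210 to 235 FPKM in rat heart against 30.9 to 77.8 FPKM. Ovary, with 921 FPKM for this list in the marmoset and 178 FPKM in the rat, had 0.713 and 3.69 FPKM of COX4I2. The part of these cells in the COX4I2 levels was not tested.

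COX6B1 encodes the common form of subunit VIb, which lies on the outer face of the inner membrane near the cytochrome c site. In marmoset heart it stood at 934 and 143 FPKM in the male and female, against 32.0 to 568 FPKM elsewhere, and rose by 1.54 ± 0.29 log2 (limma, adjusted p = 0.00594). That call rested on the block (adjusted p = 0.299 with none), on brain (log2 change 0.90 without it) and on the male heart (adjusted p = 0.0600 without it). Rat Cox6b1 stood at 267 and 193 FPKM in heart and at 17.9 to 113 FPKM elsewhere, and rose by 2.18 ± 0.28 (limma, adjusted p = 0.00102). Liver followed heart and brain was lowest by mean in both species; neighbouring tissues overlapped throughout in the marmoset, and liver and kidney did in the rat.

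COX6B2 and COX8C, the isoforms known from testis, did not pass as higher in heart in either species. For COX8C the filter of 1 FPKM fixed that outcome. In the marmoset COX8C met it only through the livers, and in the rat only through male kidney and female liver. The test could therefore not find COX8C higher in heart. COX6B2 stood at 12.7 and 0.804 FPKM in the male and female marmoset heart against 0.558 to 22.1 FPKM elsewhere (log2 change -0.19 ± 0.40, limma adjusted p = 0.706). In the rat it stood at 2.98 and 4.01 FPKM in the male and female heart against 1.27 to 5.71 FPKM (0.21 ± 0.34, limma adjusted p = 0.628). COX8C was listed at 0 in both marmoset hearts, and at 0 to 2.72 FPKM in the other marmoset libraries. Rat Cox8c stood at 0 and 0.481 FPKM in the male and female heart and at 0 to 1.24 FPKM elsewhere, and did not pass (limma adjusted p = 0.597).

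Counted without a model, both hearts lay above all 6 other somatic libraries for 2 of 9 marmoset members, COX4I2 and COX6A2, beside 10.8% of all marmoset genes tested. In the rat 6 of 9 did so, Cox4i1, Cox4i2, Cox6a2, Cox6b1, Cox7a2 and Cox8b, beside 16.2% of all rat genes tested. Both hearts lay below all other libraries for marmoset COX6A1 and for 0 of 9 rat members, beside 9.87% of all rat genes tested.

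Most members were higher in the male than in the female marmoset, 8 of 9 in heart and kidney and 9 of 9 in brain and liver. Of all marmoset genes tested, 61.2% were higher in the male in heart, 60.3% in kidney, 63.3% in brain and 57.2% in liver. The exceptions were COX8C, listed at 0 in both hearts, and COX4I2 in kidney, with a male-to-female ratio of 0.953. COX7A1 was 12.9 times as high in the male as in the female heart, 11.7 times in kidney, 12.1 times in liver and 3.70 times in brain. The members' median difference, male minus female, was 2.27 log2 in heart, 1.43 in kidney, 1.26 in liver and 0.91 in brain, beside 0.22, 0.15, 0.11 and 0.11 over all genes tested. COX8A differed in the same direction, by 1.53 in heart. In the rat the members' medians were 0.46 in heart, 1.16 in kidney, 0.50 in liver and 0.03 in brain, beside 0.09 or less over all genes. The summed FPKM of a marmoset library was also larger in the male, 837796 against 427621 in heart and 611025 against 336485 in kidney. It was 1686921 against 951576 in liver and 250996 against 210712 in brain. In the rat the male sum was larger in heart, kidney (1212678 against 678451) and liver, and smaller in brain. The part of these sums in the members' differences was not tested. Each sex is 1 animal, so the male and female values differ between 2 animals with no replicate. Whether RNA quality or library preparation moves with these differences was not tested.

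A fixed list of the other subunits of complex IV placed these changes in context. The list also holds the cytochromes c CYCS and CYCT and the factor COX7A2L, so its counts are not of subunits alone. In the marmoset 5 of 7 tested rose in heart and 0 fell, beside 13.1% and 18.2% of all genes, with a median log2 change of 2.19, and at an unadjusted p under 0.05 the number lower was also 0. The largest were CYCS, the cytochrome c that feeds the enzyme, by 3.27 ± 0.34, COX5B by 2.72, COX7B by 2.46 and COX5A by 2.19. COX7C rose by 1.73. COX7A2L, a factor of supercomplex assembly, was at 0.87 and did not pass. In the rat 9 of 11 rose and 2 fell, beside 16.7% and 17.3% of all genes, with a median of 2.61. The largest were MT-CO2 by 3.85 ± 0.70, Cox5a by 2.83, Ndufa4, now counted to complex IV, by 2.80, and Cox7b by 2.75. Cox7a2l rose by 1.10 and Cox7c by 2.09. The 2 that passed as lower were Cox8a and MT-CO1, the catalytic subunit. MT-CO1 was listed at 0 in both rat hearts and at 0 to 78151 FPKM in the other somatic libraries, so no fold is given. In the same hearts MT-CO2 stood at 887430 and 862420 FPKM. Since an exact 0 can be a failed estimate, the call of MT-CO1 as lower is uncertain. Rat Cycs had 2 entries, of which the more abundant was used.

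Assembly factors, which insert haem and copper and hold unfinished subunits, moved less. In the marmoset 7 of 21 rose and 0 fell by limma, beside 13.1% and 18.2% of all genes. In the rat 6 of 21 rose and 0 fell, beside 16.7% and 17.3% of all genes. The median log2 changes were 0.72 and 0.68. At an unadjusted p under 0.05, 0 were lower in either species. COX20, a chaperone of the second core subunit, led both lists, with 2.09 ± 0.24 in the marmoset and 2.45 ± 0.19 in the rat. COX10, an enzyme of haem A synthesis, came next, by 1.99 and 2.38. COX14 (1.66) and COX11 (1.30) followed in the marmoset, and the copper chaperone Cox17 (1.87) and Cox15 (1.47), of haem A synthesis, in the rat. At the other end, the copper chaperone SCO2 was at -0.57 in the marmoset and -1.0 in the rat (limma adjusted p = 0.175 and 0.0966), and neither passed. COA7, SURF1 and SCO1 were at -0.26, -0.25 and 0.22 in the marmoset. Pet100, Surf1 and Coa4 were at -0.05, -0.04 and 0.06 in the rat.

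**Figure D4:**
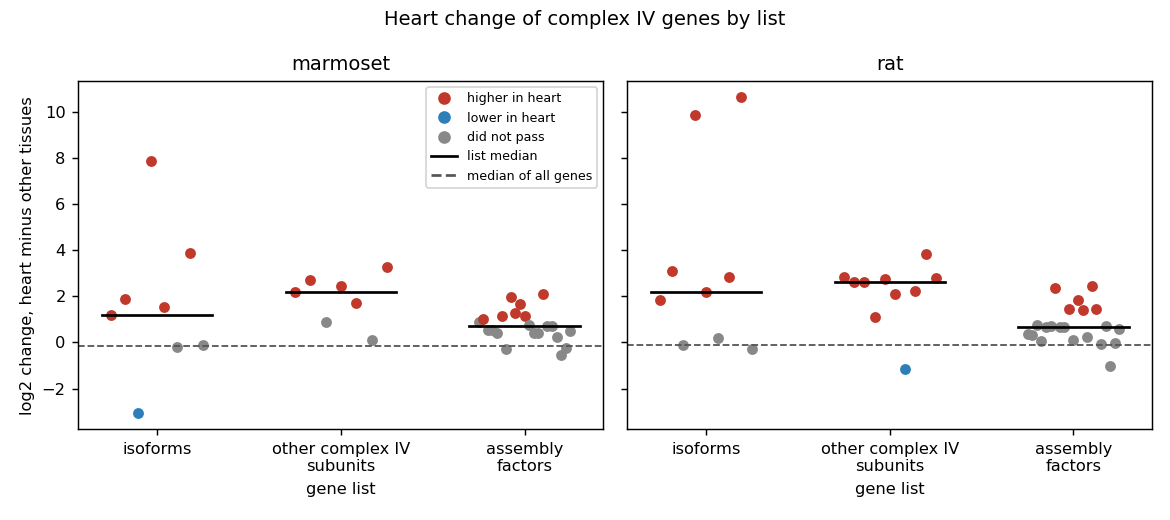
Log2 change in heart against the other somatic tissues (y axis, limma estimate) by gene list (x axis), in marmoset and rat. The lists are the isoform genes, the other subunits of complex IV with cytochrome c and COX7A2L, and the assembly factors. A point is a gene, the bar is the list median and the dashed line the median of all genes tested. The list medians lie at 1.21, 2.19 and 0.72 in the marmoset and 2.18, 2.61 and 0.68 in the rat, all above the dashed lines; marmoset COX8C and rat MT-CO1, listed at 0 in both hearts, are counted in the medians but not drawn.

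The patterns most like those of the heart-high isoforms over the 10 columns of a species, which share libraries and normalization, were named by Pearson's r of log2(FPKM + 1), as a description across 12146 marmoset or 12900 rat genes. For marmoset COX6A2 these were the entry B0KWU1_CALJA (0.994), MYL3, a myosin light chain (0.986), and MFN2, of mitochondrial fusion (0.985). For rat Cox6a2 they were Apobec2, Fgf16 and Acta1, skeletal actin (each 0.996). Rat Cox8b was closest to Asb2 (0.993), Ldb3, a Z-disc protein (0.992), and Fbxl22 (0.991). Marmoset COX7A1, less restricted to heart, was closest to B0KWI9_CALJA (0.991), CLEC14A, an endothelial receptor (0.981), and BCKDK, a kinase of branched-chain amino acid breakdown (0.981). For COX4I2 they were C11H7ORF25, MSTN and DCUN1D5 in the marmoset (0.963 to 0.972), and Bzw2, Flnc and Angptl1 in the rat (0.956 to 0.966). The columns include testis and ovary, and marmoset COX4I2 was highest in testis, at 25.5 FPKM against 4.60 and 3.11 FPKM in the hearts. Its 3 genes are therefore not named for likeness to a heart pattern alone.

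The next comparison was testis against the somatic tissues, described with no p because testis had 1 column per species. A member was called testis-high where log2(FPKM + 1) in testis was at least 2 above every heart, brain, kidney and liver library. In the rat 2 of 9 members were testis-high, Cox6b2 and Cox8c, beside 12.0% of 17208 genes. In the marmoset 1 of 9 was, COX4I2, beside 3.73% of 16387 genes. In the wallaby, against liver alone and with at least 5 FPKM in the higher tissue, 1 of 2 was, COX6B2, beside 16.0% of 8915 genes.

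Rat Cox6b2 stood at 1029 FPKM in testis and at 1.27 to 5.71 FPKM in the somatic libraries. Its paralogue Cox6b1 stood at 4.00 FPKM in testis, below every somatic library (17.9 to 267 FPKM). Cox6b2 therefore made up 99.6% of the pair in rat testis and at most 15.6% in any somatic library, in female brain. Wallaby COX6B2 stood at 1560 FPKM in testis and 4.18 FPKM in liver, a difference of 8.24 log2. In the marmoset COX6B2 stood at 3.50 FPKM in testis, inside the somatic range of 0.558 to 22.1 FPKM, and made up 3.66% of the pair there.

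Rat Cox8c stood at 2051 FPKM in testis and at 1.24 FPKM or less in every somatic library. It made up 98.5% of Cox8a, Cox8b and Cox8c in testis, where Cox8a stood at 31.3 FPKM, below all somatic libraries (298 to 3491 FPKM). Marmoset COX8C stood at 5.96 FPKM in testis, 0.90 log2 above the highest somatic library, and made up 4.57% of COX8A plus COX8C there.

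In the marmoset testis column TNP1, ODF1 and AKAP4 were near 0, whereas the rat and wallaby testis markers were abundant, and the part of the germ cells sampled in these isoform levels was not tested. COX4I2 stood at 25.5 FPKM in marmoset testis, against 4.60 FPKM in the highest somatic library, and made up 11.6% of COX4I1 plus COX4I2. In rat testis Cox4i2 stood at 0.818 FPKM, within the somatic range of 0 to 22.1 FPKM. The smooth muscle and pericyte list summed to 245 FPKM in marmoset testis and 18.2 FPKM in rat testis. Marmoset kidney, with 261 to 364 FPKM for this list, had 0.235 and 0.247 FPKM of COX4I2 in the male and female. The heart muscle list summed to 249 FPKM in marmoset testis and 33.0 FPKM in rat testis. The part of either list's cells in COX4I2 was not tested.

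Some of the forms found in most tissues stood below all heart, brain, kidney and liver libraries in testis. COX7A2 stood at 21.0 FPKM in marmoset testis, below all somatic libraries (85.2 to 386 FPKM), whereas marmoset COX4I1, COX6A1 and COX6B1 lay within the somatic range. In rat testis Cox4i1, at 192 FPKM, and Cox6a1, at 125 FPKM, lay below every somatic library (lowest at 194 and 262 FPKM), as did Cox6b1; for Cox4i1 the log2 difference from the lowest was -0.012. Members below every somatic library numbered 1 of 9 in the marmoset and 3 of 9 in the rat, beside 14.5% and 23.3% of all genes. Wallaby COX7A2 stood at 718 FPKM in testis and 901 FPKM in liver.

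**Figure D5:**
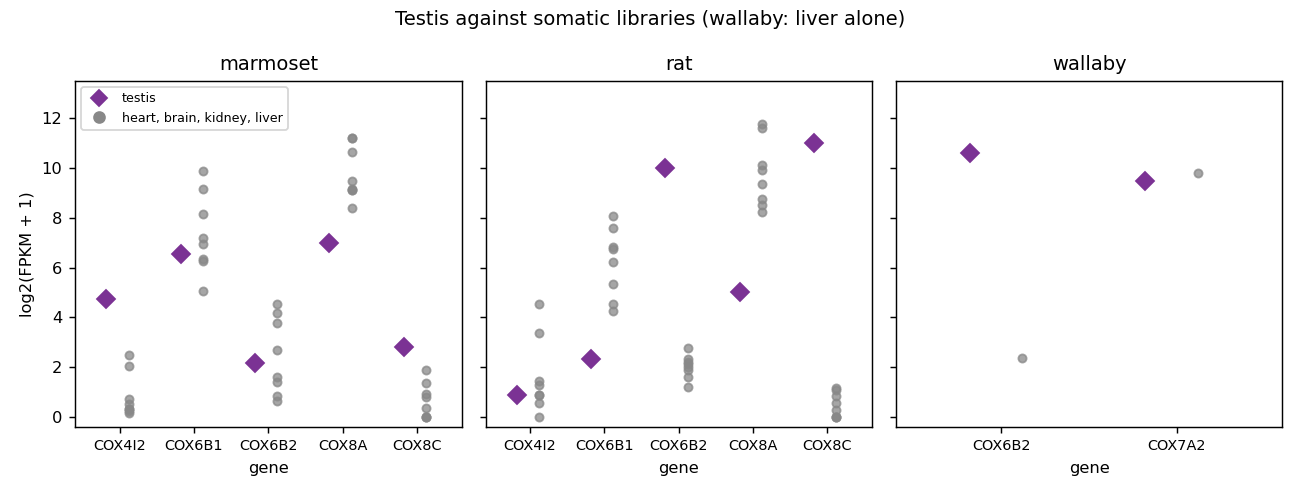
Levels in testis (diamonds) and in each somatic library (grey circles) on the log2(FPKM + 1) scale (y axis) for isoform genes (x axis) in marmoset, rat and wallaby, where liver is the only somatic library. Rat COX6B2 and COX8C and wallaby COX6B2 lie far above the somatic libraries, marmoset COX6B2 lies among them, and COX4I2 stands out in marmoset testis alone.

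Of the list of other subunits, 1 of 12 genes was testis-high in the rat, no larger a share than the 12.0% of all genes. It was Cyct, the testis form of cytochrome c and not itself a subunit. Cyct stood at 72.8 FPKM in testis and at most 0.670 FPKM in a somatic library. In rat testis 4 of 12 lay at least 2 log2 units below every somatic library, beside 0.866% of all genes, a count chosen after the values were seen. They were Cox7b (5.64 FPKM), Cox8a, Ndufa4 (20.3 FPKM) and Cycs (19.6 FPKM), the somatic partner of Cyct. In the marmoset 0 of 8 were testis-high, and 0 of 8 lay at least 2 log2 units below every somatic library, beside 0.458% of all genes. Below every somatic library by any amount lay 6 of 8 in the marmoset and 8 of 12 in the rat, beside 14.5% and 23.3% of all genes. Of the assembly factors 1 of 21 was testis-high in the marmoset and 0 of 21 in the rat, beside 3.73% and 12.0% of all genes. The marmoset one was COA4, at 57.1 FPKM against at most 12.8 FPKM. In the wallaby 2 of 4 genes of the subunit list and 10 of 16 assembly factors lay at least 2 log2 units below liver, beside 36.2% of all genes.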

How the data were processed

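Polyadenylated RNA was sequenced as single reads, per the labels' protocols, and TopHat 1.4.0 and Cufflinks 2.0.0 were used, per the submitters' processing notes. The values are FPKM as deposited by the authors, 1 table per species; for the genome build, annotation and normalization method the sources used here give nothing, and each table was analysed alone. Depth is unknown, so no counting error can be given. 8 columns of the wallaby, matching no sample and all at 0, were not used. Of 19681 marmoset rows, 8917 were named by the file, 6927 by NCBI gene ID and 513 by Ensembl ID.

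Genes at 1 FPKM or above in 2 or more somatic libraries were fitted on log2(FPKM + 1) with limma (version 3.58.1, under R 4.3.3), using a mean-variance trend, tissue and animal as terms, and Benjamini-Hochberg adjustment over all genes. The fit was tested on simulated data that had no animal effect and held heart changes in abundant genes only. That test therefore does not cover genes near 1 FPKM or the shift between animals. The animal number pairs the tissues: the male-minus-female differences of 2 tissues correlated across genes with r of 0.54 to 0.72 in the marmoset and 0.14 to 0.51 in the rat. Testis, with 1 column per species, and sex differences, with 1 library a side in each tissue, have no test. Shares were compared by an exact permutation test that ignored the pairing by animal, in Python with scipy 1.17.1 and pandas 2.3.3.

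All members are named, together with the 4 largest and 4 smallest changes of each complex IV list and the 3 most similar genes with at least 5 FPKM in a library. The members and lists were chosen with earlier results of these data known. Alternatives were other pseudocounts, filters, normalizations and thresholds, no animal block, no brain, and leaving out each library.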

Additional observations from a re-analysis of the deposited data

Results flagged for a closer look

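Rat Cox6b2 stood at 14.3 FPKM in ovary, a library used in neither the heart comparison nor the testis comparison above. The highest brain, heart, kidney or liver library had 5.71 FPKM, and rat testis had 1029 FPKM. In rat ovary it made up 35.8% of Cox6b1 plus Cox6b2. Ovary had 1 library, so the value has no error. In marmoset ovary COX6B2 stood at 9.57 FPKM, within the somatic range, and made up 21.7% of the pair.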

How the results depend on the processing

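The log2 changes of the members were recomputed under 296 combinations of member and alternative: 277 kept their direction and their side of the threshold, 9 no longer passed, 3 newly passed (all for marmoset COX8C) and 7 changed sign, all of changes that did not pass. Without the replicate block, in which the animal pairs the tissues, 2 marmoset members rose in heart in place of 5; the whole-table counts with no block were 1539 higher and 2090 lower in the marmoset. Without brain 3 rose and 2 fell, and with a pseudocount of 0.1 2 fell; leaving out 1 library in turn gave 3 to 5 that rose and 1 to 2 that fell. In the rat 6 rose and 0 fell under every such omission. Marmoset COX4I2 had no value without either heart library, because it no longer met the filter, and with a pseudocount of 5 its change was 0.74. Marmoset COX8C, listed at 0 in both hearts, met the filter through its livers alone. Wherever it newly passed, it did so as lower in heart, the only direction open to it. Marmoset COX6B2 was at 0.050 under quantile normalization. Leaving out 1 library in turn, the sign changed for COX6B2 (-0.72 to 0.33) and COX7A2 (-0.50 to 0.24) in the marmoset, without the female heart for both and for COX6B2 also without the female brain, and in the rat for Cox6a1 (-0.27 to 0.044, without the male kidney), Cox6b2 (-0.19 to 0.60, without the female heart) and Cox8c (-0.66 to 0.12, without the male heart). Share differences of heart minus other tissues ranged, leaving out 1 library in turn, from 93.0 to 93.9 points for marmoset COX6A2, 76.3 to 82.9 for rat Cox6a2, 29.6 to 42.3 for COX7A1 and 83.6 to 87.5 for rat Cox8b. At a threshold of 3 log2 units 0 marmoset members were testis-high. A pseudocount of 5 gave 1276 higher and 1289 lower genes in the marmoset in place of 1985 and 2745, and 1575 and 1209 in the rat in place of 2430 and 2523. Quantile normalization moved the marmoset median of all genes to -0.03. The cause of these shifts was not tested.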
